A study of Mus musculus with 18 samples.

Results

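RNA-seq compared SKG mutant with wild-type mice in NKT1 and NKT2, 2 subsets of thymic invariant natural killer T (iNKT) cells. The difference between the genotypes was unequal in the 2 subsets at 430 of the 11118 genes that could be tested. These genes were found by 1 test per gene of the difference of the SKG effect, that is, the log2 ratio of SKG to wild type (WT) in NKT2 cells minus the same log2 ratio in NKT1 cells. The comparison uses 12 of the 18 libraries of the series, 3 each of WT NKT1, SKG NKT1, WT NKT2 and SKG NKT2, and the 6 libraries of WT and SKG NKT17 cells entered the same fit but not the contrast. WT and SKG mice were both on the BALB/c background and were F3 offspring of BALB/cJ mice crossed with SKG. The genotypes were kept as separate lines from the F2 on, so WT and SKG mice were not littermates, and line and genotype cannot be told apart. SKG mice carry a spontaneous point mutation in Zap70 in every cell of the body, so that thymocytes and stroma, and not only the sorted cells, were mutant. All cells were thymocytes that bound CD1d tetramers loaded with α-galactosylceramide. NKT1 cells were sorted as ICOS low and CD49a positive. NKT2 cells were sorted as CD49a negative, Sdc-1 negative, ICOS high, CD4 high and TCRβ high, and NKT17 cells as CD49a negative, ICOS high and Sdc-1 positive. Ages, sexes and the number of mice per library are not given in the sources used here. Xist, which is transcribed from the inactive X chromosome of females, was at 194 to 385 CPM in the 3 WT replicate 1 libraries and at 284 to 333 CPM in the 3 SKG replicate 2 libraries, and at most 1.30 CPM in the other 12. The Y-linked gene Ddx3y was at most 0.39 CPM in those 6 libraries and 70.5 to 138 CPM in the other 12. Libraries of the same genotype and number were thus alike in sex-linked genes across the subsets, and each group held 1 library with Xist.

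iNKT cells carry a nearly invariant T cell receptor (TCR) that recognises lipids presented by CD1d, and they acquire effector programs while still in the thymus. NKT1 cells express T-bet and make interferon-γ, NKT2 cells express high levels of PLZF and make interleukin-4 (IL-4), and NKT17 cells express RORγt and make IL-17. ZAP70 is the tyrosine kinase that is recruited to the phosphorylated TCR and passes the signal to LAT and SLP-76. The SKG mutation lies in the second SH2 domain, the part of ZAP70 that binds the receptor, and weakens TCR signalling without abolishing it.

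Between 4391029 and 8895917 reads per library were assigned to genes. Levels are CPM values, that is, counts of a gene relative to the TMM-scaled total of its library, in the order of the replicates. Calls rest on the quasi-likelihood test of edgeR, with a p adjusted after Benjamini and Hochberg of under 0.1 and a fold of 1.5 or more, and "rose" and "fell" are used only of effects that passed both. The sorted subsets expressed their defining genes. The summed level of 6 NKT1 markers, Tbx21 among them, was 4721 to 5296 CPM in WT NKT1 and 298 to 422 CPM in WT NKT2. In SKG cells the NKT1 sum was 3973 to 4307 CPM in NKT1 and 211 to 298 CPM in NKT2, and 0 of the 6 were called in the difference. The 6 NKT2 markers summed to 2890 to 3338 CPM in WT NKT2. The NKT2 sum was 650 to 1072 CPM in WT NKT1 and 1470 to 2137 CPM in SKG NKT2. Folr4, Icos and Cd4 had means of 1012, 1109 and 380 CPM in WT and 390, 735 and 221 CPM in SKG NKT2. Zbtb16, which encodes PLZF, was at a mean of 194 CPM in WT and 193 CPM in SKG NKT2. Gata3 was at a mean of 268 CPM in WT NKT1 and 269 CPM in WT NKT2, and at 230 CPM in SKG NKT1 and 173 CPM in SKG NKT2. Of the 6 NKT2 markers tested, 2 fell in SKG NKT2, Gata3 and Icos (edgeR adjusted p 0.00208 and 0.00493), and 0 rose. ICOS and CD4 were gates of the sort, so their genes are not an independent check of it. NKT17 markers stayed at or below 13.9 CPM in all 12 libraries. Sums of markers of other or earlier cells also moved with genotype within a subset. Markers of early iNKT cells, 1 of 7 tested members called lower in the difference (Lef1), were at 664 to 817 CPM in WT and 493 to 521 CPM in SKG NKT1, and at 467 to 660 CPM in WT and 248 to 362 CPM in SKG NKT2. Itm2a and Cd69 led that sum in WT NKT1, at means of 394 and 229 CPM, but were at 28.9 and 20.2 CPM in WT NKT2. Of the 7 early markers tested, 3 fell and 0 rose in SKG NKT2. Among them, Myb had means of 66.4 CPM in WT and 11.4 CPM in SKG NKT2, and Hivep3 of 41.1 and 13.8 CPM. Myeloid markers (0 of 4 tested called in the difference), most of the sum from Fcer1g and Cst3, were at 531 to 862 CPM in WT and 367 to 455 CPM in SKG NKT1, while Csf1r had at most 7 counts in any of the 12 libraries. Fcer1g was at a mean of 400 CPM in WT NKT1 and 1.87 CPM in WT NKT2, whereas Lyz2 had 0, 0 and 43 counts in WT NKT1. The 3 of 8 γδ T cell markers in the data (0 of 3 called in the difference), mainly 5830411N06Rik in NKT1 and with Sox13 in WT NKT2, summed to 30.9 to 50.8 CPM in WT and 72.4 to 107 CPM in SKG NKT1, and to 189 to 354 CPM in WT and 65.4 to 127 CPM in SKG NKT2. Sox13 fell in NKT2 from a mean of 141 to 5.72 CPM and Blk from 5.27 to 1.22 CPM (edgeR adjusted p 1.33e-07 and 0.0102). Sox13 also fell in NKT1, from a mean of 2.22 to 0.293 CPM (edgeR adjusted p 0.0804). Double-positive thymocyte markers (0 of 3 tested called), mainly Cd1d1, summed to 35.6 to 42.5 CPM in WT and 59.2 to 74.8 CPM in SKG NKT2, while Rag1 and Rag2 had at most 1 count in any of the 12 libraries. Cd8a had 12 to 56 counts in WT NKT1 libraries and at most 3 in the others. Cd79a, of B cells, had at most 5 counts in any of the 12 libraries, and the part of such cells in the results was not tested.

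Of the 430 genes called in the difference (3.87% of those tested), 232 (2.09%) had a higher and 198 (1.78%) a lower SKG effect in NKT2 than in NKT1. The median size of the difference among them was 1.30 on the log2 scale and 131 differed by 4-fold or more, while the median difference over all tested genes was 0.003. SKG cells differed from WT cells at 364 genes in NKT1 (3.27% of those tested) and at 884 genes in NKT2 (7.95%). In NKT1 162 genes were higher and 202 lower in SKG, and in NKT2 434 were higher and 450 lower. The larger SKG effect was more often the one in NKT2. The absolute SKG effect was the larger one in NKT2 for 307 of the 430 genes and in NKT1 for 123, and its median was 0.97 in NKT2 and 0.42 in NKT1 on the log2 scale. By the calls in each subset, 238 genes were called in NKT2 alone (132 higher and 106 lower in SKG), 80 in NKT1 alone (43 higher and 37 lower), 18 in both in opposite directions and 18 in both in the same direction. Of the last 18, 14 had the larger effect in NKT2. The other 76 genes passed in neither subset and differed by a median of 0.79 on the log2 scale. These classes describe the calls that make up the difference and were not tested further. Counts of list members called in the difference are to be read beside the shares of all tested genes, 2.09% higher and 1.78% lower. Counts of members that rose or fell within a subset are to be read beside 3.27% in NKT1 and 7.95% in NKT2, both directions together.

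**Figure D1:**
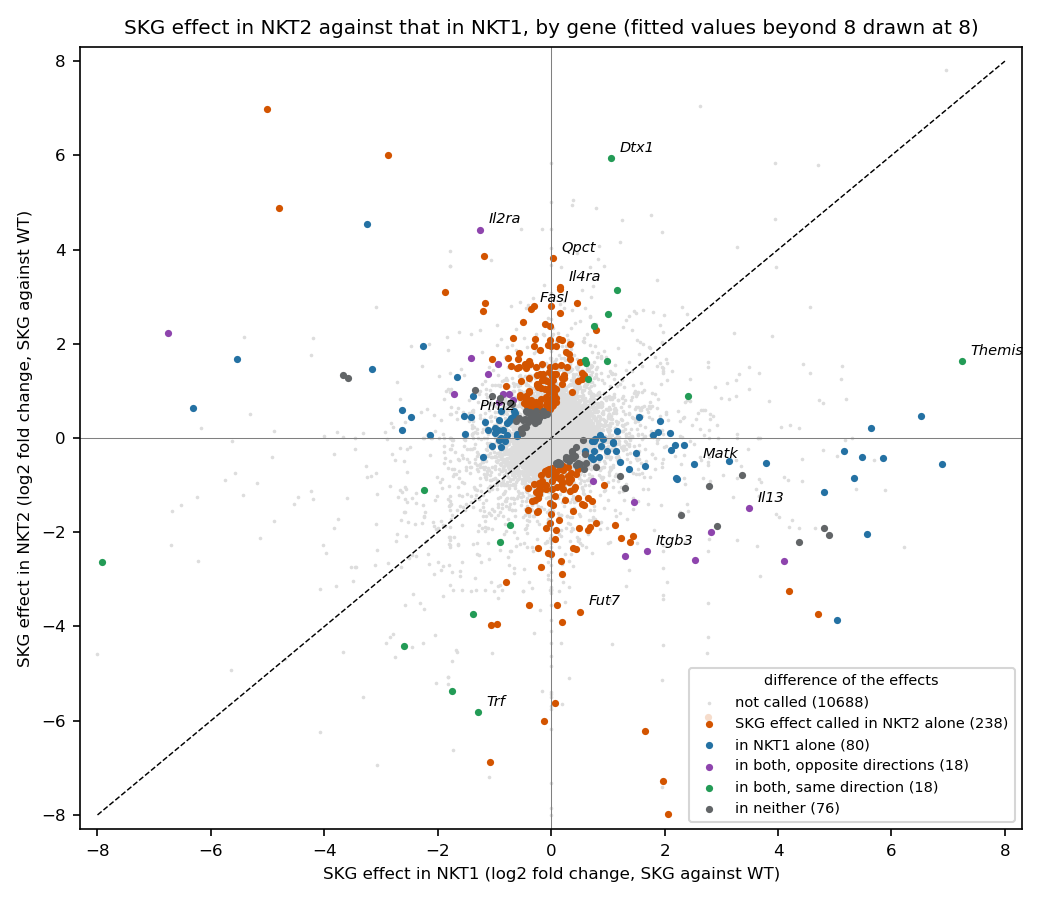
SKG effect in NKT2 (vertical axis) against SKG effect in NKT1 (horizontal axis) for 11118 genes, both as log2 fold change of SKG against WT from 3 libraries per group. The dashed line marks equal effects, and values beyond 8 are drawn at 8. The 430 called genes are coloured by the subset in which the SKG effect itself was called, and 238 of them, along the vertical axis, were called in NKT2 alone.

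In WT cells, genes with a higher SKG effect in NKT2 mostly had their lower level in NKT2, and genes with a lower effect their higher level. Of the 232 genes with a higher SKG effect in NKT2, 205 had a lower mean level in NKT2 than in NKT1 of WT mice, and of the 198 with a lower effect, 164 had a higher mean level in WT NKT2. Of all 11118 tested genes, 5514 were lower and 5558 higher in WT NKT2. The absolute gap between the subsets, on the log2 scale with 0.5 CPM added, was smaller in SKG than in WT for 311 of the 430 genes (72.3%), beside 60.2% of all tested genes. Its median over the called genes was 1.28 in WT and 0.699 in SKG. The gaps come from the same libraries that chose the genes, and the WT levels enter the contrast with signs that favour this pattern. The gaps are thus a description without a test.

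Zap70, the mutated gene (chromosome 1, 36818695 to 36839663), stood at 516, 569 and 605 CPM in WT and 483, 421 and 529 CPM in SKG NKT1, and at 483, 574 and 502.8 CPM in WT and 394, 360.2 and 436 CPM in SKG NKT2. The libraries overlapped in NKT1, and those of SKG lay below WT in NKT2 by less than the 1.5-fold minimum. The difference of the SKG effect was -0.15 (SE 0.16) and missed the threshold, with an edgeR adjusted p of 0.765. Counts per gene do not show the mutation itself.

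Of the 10 genes with the smallest adjusted p for a higher SKG effect in NKT2, Qpct, which encodes the glutaminyl cyclase that forms pyroglutamate at protein N termini, ranked first (chromosome 17, 79451246 to 79489583). In NKT2 cells it stood at 18.4, 14.9 and 19.4 CPM in WT and 235, 288 and 219 CPM in SKG. In NKT1 cells it stood at 343, 296 and 341 CPM in WT and 319, 369.5 and 319 CPM in SKG. WT NKT2 libraries lay far below those of the other groups, and SKG NKT2 libraries came close to NKT1. Qpct rose 14.1-fold in NKT2, and the effects differed by 3.78 on the log2 scale (SE 0.19, edgeR adjusted p 1.35e-11). Fasl (chromosome 1, 163710820 to 163718626) encodes the ligand that triggers death through Fas. Its levels were 10.0, 16.1 and 15.7 CPM in WT NKT2, 112, 66.2 and 104 CPM in SKG NKT2, 487, 597 and 586 CPM in WT NKT1 and 489, 377 and 438 CPM in SKG NKT1. It rose 6.77-fold in NKT2 without reaching the NKT1 levels, which overlapped between genotypes (difference 3.10, SE 0.25, edgeR adjusted p 1.20e-07). Fasl was the single call among 14 tested cytotoxic effectors (median difference 0.06), beside 3.87% of all tested genes.

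Cd96, an inhibitory receptor for nectin-family ligands (chromosome 16, 46035770 to 46120364), was at 126, 133 and 138 CPM in WT NKT2 and 479, 577 and 489 CPM in SKG NKT2. WT NKT1 held 446, 375 and 480.2 CPM and SKG NKT1 442, 482 and 450.1 CPM, so that only the WT NKT2 libraries stood apart. Its SKG effect differed by 1.88 (SE 0.16, edgeR adjusted p 1.20e-07). Ms4a4b, a four-transmembrane protein of T cells (chromosome 19, 11518043 to 11538039), went from 165, 134 and 204 CPM in WT to 990.1, 833 and 883 CPM in SKG NKT2. NKT1 cells held 2809, 2669 and 2859 CPM in WT and 2507, 2665 and 2552 CPM in SKG. The NKT2 genotypes were far apart, whereas those of NKT1 lay next to each other, and the difference was 2.54 (SE 0.22, edgeR adjusted p 2.67e-07). Ms4a4b belongs to a cluster of related genes, and reads shared with its neighbours cannot be told apart. Ms4a6b and Ms4a6d of that cluster were also called higher (1.08 and 1.38 on the log2 scale).

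Il4ra, the IL-4 receptor α chain (chromosome 7, 132695785 to 132722986), stood at 5.11, 7.86 and 9.54 CPM in WT NKT2 and 54.8, 87.9 and 67.1 CPM in SKG NKT2. In NKT1 cells it stood at 97.2, 126 and 155 CPM in WT and 122, 128 and 173 CPM in SKG. It rose 9.32-fold in NKT2 while the NKT1 libraries overlapped (difference 3.04, SE 0.31, edgeR adjusted p 2.38e-06). Ltb, a membrane-bound tumour necrosis factor (TNF) family ligand (chromosome 17, 35331384 to 35333265), was at 448, 610.1 and 499 CPM in WT and 1099, 1382 and 1285 CPM in SKG NKT2. WT NKT1 libraries held 1327, 1414 and 1366 CPM and SKG NKT1 libraries 1029, 1018 and 1088 CPM. SKG lay above WT in NKT2 and below it in NKT1, where the fold stayed under 1.5, and the difference was 1.66 (SE 0.17, edgeR adjusted p 1.41e-06). Dap, which encodes death-associated protein (chromosome 15, 31154140 to 31204093), rose from 58.7, 63.1 and 59.8 CPM to 146, 157 and 162 CPM in NKT2. Its NKT1 levels of 325, 264 and 301 CPM in WT and 252, 277 and 273 CPM in SKG overlapped, with a difference of 1.51 (SE 0.16, edgeR adjusted p 2.23e-06).

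Pim2 and Dtx1 followed other patterns. Pim2, a serine/threonine kinase induced by cytokine receptors (chromosome X, 7455388 to 7460558), was at 478, 412 and 465 CPM in WT and 166, 190.2 and 151 CPM in SKG NKT1. In NKT2 it was at 42.9, 41.2 and 31.5 CPM in WT and 51.5, 53.6 and 52.8 CPM in SKG. It fell 2.67-fold in NKT1, and in NKT2 SKG lay above WT by less than 1.5-fold, giving a difference of 1.87 (SE 0.19, edgeR adjusted p 1.45e-06). Dtx1, an E3 ligase and Notch target (chromosome 5, 121130211 to 121161936), had at most 2 counts in any WT NKT2 library, at 0.409, 0.350 and 0.323 CPM, and 25.8, 22.9 and 21.2 CPM in SKG NKT2. NKT1 cells held 50.7, 21.8 and 21.1 CPM in WT and 78.4, 64.6 and 53.7 CPM in SKG. Dtx1 rose in both subsets, 2.10-fold in NKT1 and at least 43.1-fold in NKT2, so the difference was at least 4.36 on the log2 scale (edgeR adjusted p 5.86e-06). This bound takes 3 counts per library as the floor of a group without more, and covers counting error only.

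Among the 10 genes with the strongest evidence for a lower SKG effect in NKT2, 6 were called in NKT2 alone. Slc29a1, the equilibrative nucleoside transporter ENT1 (chromosome 17, 45722149 to 45736555), stood at 455, 419.9 and 449 CPM in WT and 143, 167 and 144 CPM in SKG NKT2. NKT1 cells held 88.1, 98.1 and 129 CPM in WT and 135, 141 and 137 CPM in SKG. WT NKT2 was the highest group by far, and SKG NKT2 lay next to NKT1. The SKG effects differed by -1.93 (SE 0.17, edgeR adjusted p 2.67e-07). Fam129a, or Niban (chromosome 1, 153418316 to 153569069), also had its single high group in WT NKT2. Its levels were 378, 383 and 331 CPM in WT NKT2, 98.9, 107 and 109 CPM in SKG NKT2, 104, 118 and 109.8 CPM in WT NKT1 and 114, 104 and 109 CPM in SKG NKT1 (difference -1.77, SE 0.16, edgeR adjusted p 4.45e-07). Fut7 (chromosome 2, 25278787 to 25281894) encodes the fucosyltransferase that makes selectin ligands. It was at 67.4, 40.4 and 33.8 CPM in WT NKT2 and 3.08, 3.92 and 3.85 CPM in SKG NKT2, and at 17.4, 11.5 and 23.9 CPM in WT and 26.8, 28.3 and 20.6 CPM in SKG NKT1. Fut7 fell 13.0-fold in NKT2 to below every NKT1 library (difference -4.20, SE 0.40, edgeR adjusted p 6.44e-07).

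**Figure D2:**
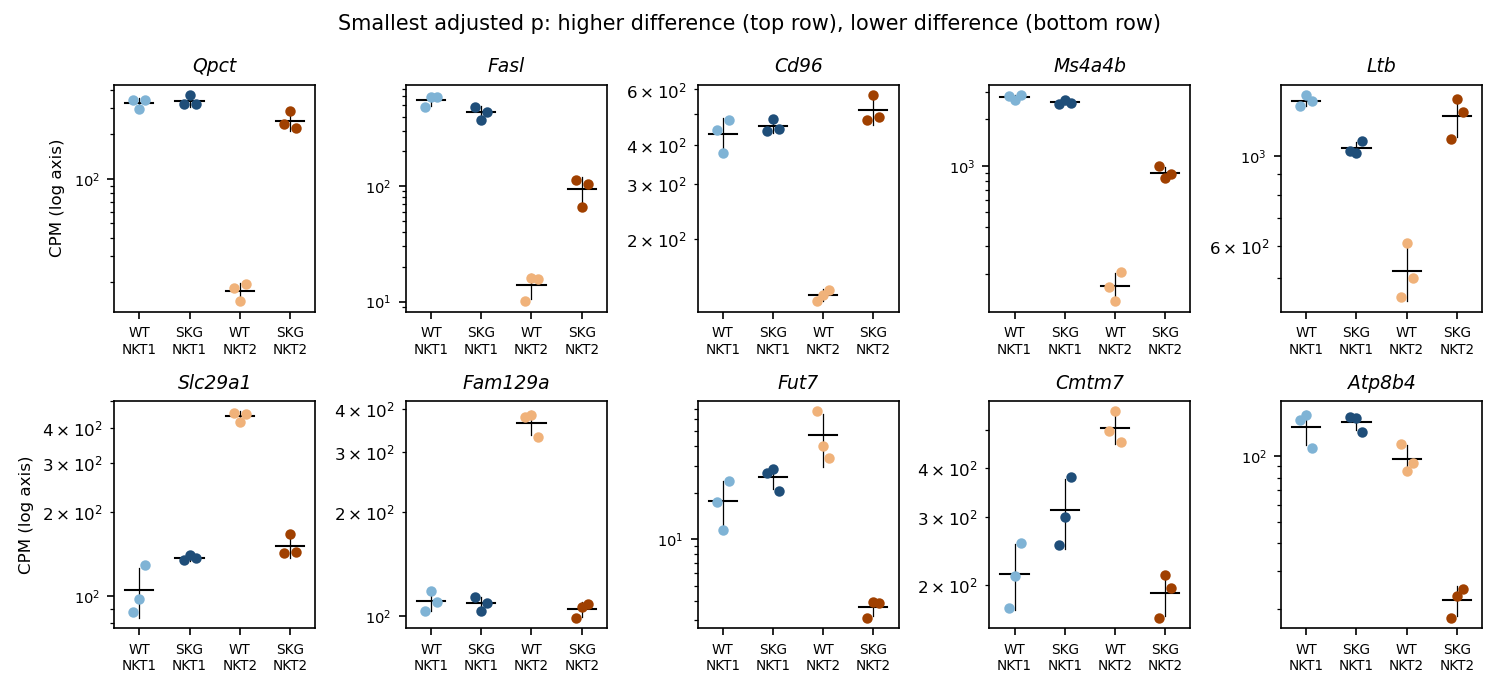
CPM per library (points, log axis) with the mean (bar) and SD (line) of 3 libraries in each of 4 groups, for the 5 genes with the smallest adjusted p among higher differences (top row) and among lower differences (bottom row). In the top row WT NKT2 is the lowest group, as for Qpct at 14.9 to 19.4 CPM, and in the bottom row SKG NKT2 is below WT NKT2 for each gene.

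Cmtm7, a MARVEL-domain membrane protein (chromosome 9, 114665955 to 114690963), had 497, 559 and 466 CPM in WT NKT2, 165, 212 and 196 CPM in SKG NKT2, 174, 211 and 257 CPM in WT NKT1 and 254, 299.9 and 379 CPM in SKG NKT1. It fell in NKT2, and in NKT1 the libraries overlapped with a mean that was higher in SKG, so the difference was -1.95 (SE 0.21, edgeR adjusted p 4.28e-06). Atp8b4, of the phospholipid flippase family (chromosome 2, 126146709 to 126326410), was at 114, 85.6 and 93.6 CPM in WT NKT2 and 18.3, 23.1 and 24.9 CPM in SKG NKT2. With 146, 154 and 109 CPM in WT and 150.5, 149.8 and 129.8 CPM in SKG NKT1, SKG NKT2 was the single low group (difference -2.21, SE 0.25, edgeR adjusted p 9.89e-06). Ttc39c, a tetratricopeptide repeat protein, fell from 93.0, 83.2 and 78.1 CPM to 14.5, 21.9 and 13.8 CPM in NKT2. It was at 73.2, 72.4 and 71.4 CPM in WT and 53.5, 70.4 and 61.9 CPM in SKG NKT1, where SKG lay just below WT (difference -2.11, SE 0.25, edgeR adjusted p 1.50e-05). In NKT17 it went the other way, from 8.20, 8.35 and 5.76 CPM in WT to 36.7, 31.6 and 34.7 CPM in SKG (edgeR adjusted p 1.14e-07).

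Matk and Trf differed in kind from these. Matk encodes a kinase related to Csk, which phosphorylates the inhibitory tyrosine of Src-family kinases (chromosome 10, 80715680 to 80726110). It was at 0.966, 3.25 and 1.77 CPM in WT and 9.66, 13.1 and 10.0 CPM in SKG NKT1, and at 70.1, 57.0 and 80.3 CPM in WT and 54.2, 44.0 and 43.8 CPM in SKG NKT2. The rise was 5.49-fold in NKT1, from a very low level, whereas in NKT2 SKG lay below WT without passing the test, and the effects differed by -3.07 (SE 0.36, edgeR adjusted p 1.24e-05). Trf, transferrin, fell in both subsets. It went from 555, 791 and 762 CPM to 304, 254 and 305 CPM in NKT1 and from 389, 346 and 244 CPM to 5.51, 6.46 and 5.30 CPM in NKT2, a 2.44-fold and a 56.7-fold decrease (difference -4.54, SE 0.48, edgeR adjusted p 8.71e-05). Its symbol has no unique position in the annotation used.

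The SKG effect was called in opposite directions in the subsets at 18 genes, of which 10 fell in NKT1 and rose in NKT2 and 8 did the reverse. Of the 8 with the smallest adjusted p and enough counts, 6 are described here. The 250 bases before the start of 3 of them are shown so that the letters upstream of genes with opposite effects can be read: Il2ra with the largest difference of the 6, Trib2 with the single motif match, and Amph of the reverse direction. Sequences are from RefSeq on build GRCm38.p6, 5′ to 3′ on the strand of the gene, with motif matches in capitals. Il2ra lies on the plus strand (chr2:11642542-11642791), Trib2 on the minus strand (chr12:15816786-15817035) and Amph on the plus strand (chr13:18948101-18948350).
Il2ra: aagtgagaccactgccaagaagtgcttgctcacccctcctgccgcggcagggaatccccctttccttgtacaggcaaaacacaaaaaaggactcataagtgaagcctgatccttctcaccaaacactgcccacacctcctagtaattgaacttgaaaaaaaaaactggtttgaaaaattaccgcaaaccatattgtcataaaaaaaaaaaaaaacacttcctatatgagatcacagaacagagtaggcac
Trib2: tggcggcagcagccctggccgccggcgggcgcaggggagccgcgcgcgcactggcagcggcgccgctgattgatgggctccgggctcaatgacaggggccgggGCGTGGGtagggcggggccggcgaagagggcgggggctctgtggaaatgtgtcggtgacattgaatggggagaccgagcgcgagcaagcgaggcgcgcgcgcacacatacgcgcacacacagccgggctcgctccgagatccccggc
Amph: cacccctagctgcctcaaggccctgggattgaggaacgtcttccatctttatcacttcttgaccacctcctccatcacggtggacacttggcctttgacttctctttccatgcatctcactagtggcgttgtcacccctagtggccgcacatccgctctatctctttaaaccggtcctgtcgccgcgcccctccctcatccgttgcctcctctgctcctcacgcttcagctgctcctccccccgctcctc

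Promoters of 4 of the 6 genes were matched (Il2ra, Btg1, Trib2 and Amph), and Relb and Itgb3 had no entry. Both strands were searched for a T-box motif (GGTGTGA), an AP-1 motif (TGANTCA), an EGR motif (GCGTGGG), an E protein motif (CAGGTG) and an NFAT motif (GGAAAA), none of which contains another. The same window of 27025 RefSeq promoters held them in 3.3%, 6.9%, 4.2%, 17.1% and 20.6% of cases. The single match was the EGR motif of Trib2, whose first base lies 147 bases before the start. The other 3 windows hold none of these letters, which says nothing about the factors.

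Il2ra, the α chain that gives the IL-2 receptor its high affinity (chromosome 2, 11564419 to 11614818), stood at 25.7, 31.9 and 25.3 CPM in WT and 13.2, 7.71 and 13.7 CPM in SKG NKT1. In NKT2 it stood at 0.818, 0.175 and 2.42 CPM in WT and 21.6, 17.0 and 38.2 CPM in SKG. The genotypes did not overlap in either subset, and their order was reversed. Il2ra fell 2.40-fold in NKT1 and rose 22.5-fold in NKT2, and the SKG effects differed by 5.67 (SE 0.54, edgeR adjusted p 2.99e-06). Il2ra marks regulatory T cells. Actn1 (α-actinin), listed with it among markers of conventional and regulatory T cells, fell in NKT1 from 26.2, 23.1 and 11.0 CPM to 3.72, 2.71 and 3.29 CPM while its NKT2 libraries overlapped (difference 2.81, SE 0.48, edgeR adjusted p 0.00108).

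The 8 genes of the list of conventional and regulatory T cell markers to which Il2ra and Actn1 belong summed to 65.0 to 73.1 CPM in WT and 15.8 to 20.4 CPM in SKG NKT1. They summed to 454 to 681 CPM in WT and 734 to 945 CPM in SKG NKT2. Of 6 members tested, 3 were called higher and none lower in the difference, Il2ra and Actn1 among them, with a median of 2.59, or 2.47 with floor levels at their bound, beside 0.003 over all genes. Most of the sum in NKT2 came from Ccr7 and Igfbp4, whose mean was 262 and 244 CPM in WT and 413 and 369.5 CPM in SKG. Their differences did not pass (edgeR adjusted p 0.863 and 0.699). Foxp3 had 0 counts in each NKT2 library and in WT NKT1, and 1 to 3 counts in SKG NKT1. The part of such cells in the levels of Il2ra and Actn1 was not tested, and in sorted pools a change in the share of cells and a change in RNA per cell cannot be told apart.

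Btg1, Relb and Trib2, which also fell in NKT1 and rose in NKT2, were moderately to highly expressed. Btg1, an antiproliferative gene of resting lymphocytes (chromosome 10, 96079635 to 96085447), was at 2584, 2747 and 1738 CPM in WT and 1193, 1327 and 1199 CPM in SKG NKT1. It was at 1248, 989.6 and 1067 CPM in WT and 2067, 1757 and 1818 CPM in SKG NKT2. Neither pair of groups overlapped, and WT NKT1 and SKG NKT2 were the high groups. The difference was 1.70 (SE 0.20, edgeR adjusted p 1.09e-05). Relb, the partner of p52 in non-canonical NF-κB (chromosome 7, 20191566 to 20214787), showed the same order. Its levels were 118, 122 and 99.0 CPM in WT NKT1, 65.4, 68.9 and 76.9 CPM in SKG NKT1, 58.3, 53.8 and 62.2 CPM in WT NKT2 and 105, 95.7 and 105 CPM in SKG NKT2 (difference 1.49, SE 0.18, edgeR adjusted p 1.46e-05). For Trib2, a Tribbles pseudokinase (chromosome 12, 15798533 to 15823683), NKT1 held 29.6, 28.1 and 30.1 CPM in WT and 20.8, 17.3 and 14.2 CPM in SKG. NKT2 held 93.8, 126 and 96.5 CPM in WT and 230.1, 184 and 192 CPM in SKG, so the gap between the subsets was wider in SKG (difference 1.68, SE 0.20, edgeR adjusted p 1.50e-05).

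In the reverse direction, Itgb3, the β3 integrin chain (chromosome 11, 104469370 to 104531790), was at 3.98, 6.49 and 0.886 CPM in WT and 12.6, 14.0 and 10.0 CPM in SKG NKT1. It fell from 194, 136 and 144 CPM in WT to 25.5, 41.1 and 23.0 CPM in SKG NKT2. The genotypes were apart in both subsets, with a 3.22-fold rise in NKT1 and a 5.28-fold fall in NKT2 (difference -4.09, SE 0.49, edgeR adjusted p 1.02e-04). Amph, amphiphysin, which binds curved membranes (chromosome 13, 19040240 to 19242782), rose from 0.966, 3.63 and 2.83 CPM to 6.87, 6.87 and 3.81 CPM in NKT1. In NKT2 it fell from 25.8, 19.6 and 24.9 CPM to 3.08, 4.89 and 4.34 CPM (difference -3.79, SE 0.52, edgeR adjusted p 1.04e-04). A further 10 genes with opposite effects were Klrb1f, Amica1, Ctla2a and Itga4, which fell in NKT1 and rose in NKT2, and Ptger4, Nrp2, Tnfrsf21, Efr3b, Il13 and Snx8, which did the reverse. Some of these NKT1 calls rest on few counts. Tnfrsf21 had 0, 2 and 0 counts in WT and 4, 5 and 5 in SKG NKT1, and Il13 had 0, 0 and 1 in WT and 3, 4 and 6 in SKG NKT1. Efr3b was at the floor in WT NKT1, and Snx8 passed in NKT1 at an edgeR adjusted p of 0.099. Itga4 was at 58.6, 14.3 and 19.0 CPM in WT and 8.55, 13.3 and 12.8 CPM in SKG NKT1 (edgeR adjusted p 0.0767), with 1 WT library far above the rest.

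**Figure D3:**
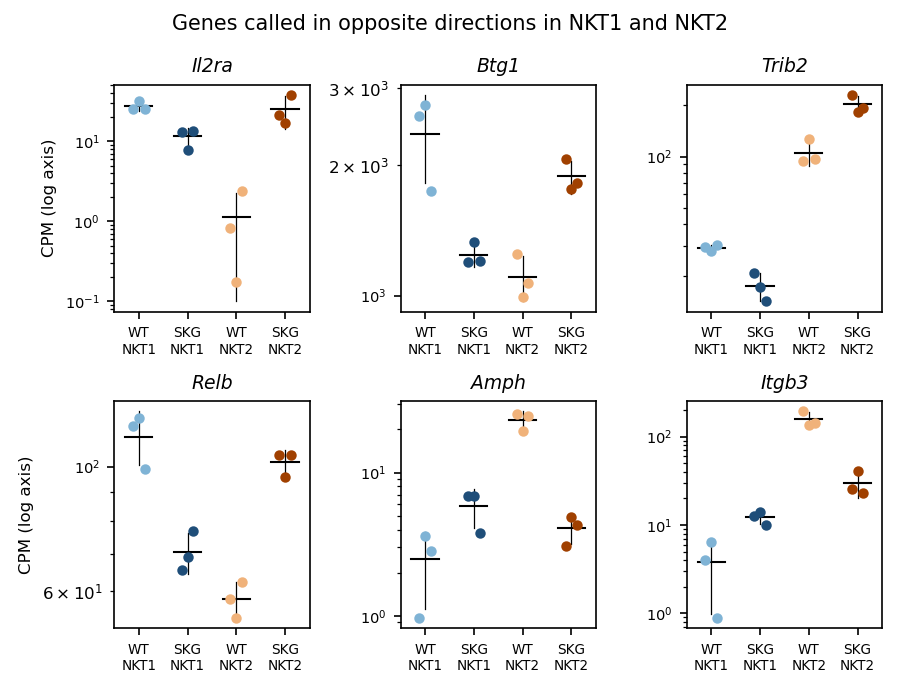
CPM per library (points, log axis) with the mean (bar) and SD (line, cut at 0.1 CPM) of 3 libraries in each of 4 groups, for 6 genes that were called in opposite directions. SKG lies below WT in NKT1 and above it in NKT2 for Il2ra, Btg1, Trib2 and Relb, and the reverse holds for Amph and Itgb3.

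Genes of cytokine sensing were called in 1 direction. Of 26 tested cytokine receptors, 5 had a higher and 0 a lower SKG effect in NKT2, beside 2.09% and 1.78% of all tested genes. The median difference was 0.61 over the list and 0.003 over all genes. Il7r, the IL-7 receptor α chain that sustains T cell survival (chromosome 15, 9435916 to 9459631), was at 475, 569 and 472 CPM in WT and 1135, 1037 and 941 CPM in SKG NKT2. In NKT1 it was at 1052, 1105 and 1096 CPM in WT and 1085, 1038 and 897 CPM in SKG. WT NKT2 was the low group, and SKG NKT2 reached the level of NKT1 (difference 1.14, SE 0.14, edgeR adjusted p 2.27e-05). Il21r and Tgfbr2 differed by 0.85 (SE 0.16) and 0.91 (SE 0.16), and both rose in NKT2, with Il21r at 46.2 to 48.7 CPM in WT and 116 to 129 CPM in SKG. Il4ra and Il2ra are given above. In NKT2 cells 10 receptors of the list rose and 1 fell, and in NKT1 cells 1 rose and 2 fell. Of all 11118 tested genes, 434 rose and 450 fell in NKT2, and 162 rose and 202 fell in NKT1. Without WT NKT1 replicate 3, 1 receptor was also called lower in the difference.

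Of 19 JAK, STAT, SOCS and PIM genes, which relay or damp cytokine signals, 5 were called higher and 0 lower (median difference 0.30), beside 2.09% and 1.78% of all tested genes. Cish, a STAT5-induced inhibitor (chromosome 9, 107198357 to 107205115), rose in both subsets. It went from 104, 77.1 and 88.0 CPM to 146, 146 and 162 CPM in NKT1 and from 17.0, 9.79 and 16.2 CPM to 78.2, 63.4 and 81.3 CPM in NKT2, where the change was larger (difference 1.62, SE 0.30, edgeR adjusted p 0.00323). Socs3, which inhibits signalling through gp130, was at 74.7, 29.6 and 73.2 CPM in WT and 16.7, 32.1 and 19.9 CPM in SKG NKT1, where it fell with overlapping libraries, and in NKT2 SKG lay above WT without passing (difference 2.27, SE 0.44, edgeR adjusted p 0.00806). Stat4, the STAT of IL-12 signalling, rose in NKT2, with 0.970 to 2.45 CPM in WT and 4.11 to 13.8 CPM in SKG (difference 2.96, SE 0.58, edgeR adjusted p 0.0101). NKT1 cells held 284 CPM or more. Pim2 is described above.

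Cytokine genes themselves were called in both directions, 3 higher and 2 lower of 15 tested (median difference 0.08, or 0.00 with floor levels at their bound). The lymphotoxin genes rose in NKT2: Lta (chromosome 17, 35340110 to 35342296) was at 17.2, 21.7 and 26.0 CPM in WT and 66.1, 83.6 and 79.0 CPM in SKG NKT2, beside 10.6, 15.7 and 23.7 CPM in WT and 8.73, 12.5 and 12.1 CPM in SKG NKT1. SKG NKT2 was the high group (difference 2.38, SE 0.32, edgeR adjusted p 8.71e-05). Tnf, which lies between Ltb and Lta, was at 4.29 to 6.82 CPM in WT and 12.3 to 16.3 CPM in SKG NKT2 (difference 1.31, SE 0.36, edgeR adjusted p 0.0553), but 10 of 22 alternatives ended the call. Il4 (chromosome 11, 53416484 to 53432171) was at 7.73, 13.0 and 25.3 CPM in WT and 39.2, 47.1 and 56.1 CPM in SKG NKT1. NKT2, in which it is a defining cytokine, held 110.2, 175 and 152 CPM in WT and 119, 75.6 and 93.9 CPM in SKG. Il4 rose 3.09-fold in NKT1 to a level still below NKT2, and its NKT2 libraries overlapped between genotypes (difference -2.25, SE 0.43, edgeR adjusted p 0.00542). The neighbouring Il13, also a type 2 cytokine gene, had at most 1 count in WT NKT1 and 0.557, 0.833 and 1.04 CPM in SKG NKT1, and it fell from 18.2, 15.4 and 24.4 CPM in WT to 7.05, 4.70 and 8.83 CPM in SKG NKT2 (difference at most -2.22, edgeR adjusted p 0.0129).

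The receptors and ligands of costimulation differed mainly through rises in NKT2, with 5 of 16 tested called higher and 1 lower (median difference 0.32). Tnfrsf25, the death receptor DR3 that binds TL1A, was at 9.61, 5.77 and 6.95 CPM in WT and 41.8, 69.3 and 51.4 CPM in SKG NKT2, while NKT1 libraries held 14.9 to 28.5 CPM in WT and 24.8 to 36.5 CPM in SKG. SKG NKT2 became the highest group (difference 2.41, SE 0.32, edgeR adjusted p 8.56e-05). Cd44, the hyaluronan receptor of memory T cells, and Cd40lg, which licenses antigen-presenting cells, rose in NKT2 while NKT1 overlapped. Their differences were 1.01 (SE 0.15) and 0.85 (SE 0.14), with edgeR adjusted p of 2.60e-04 and 8.92e-04. Fas differed by 1.58 (SE 0.31), with 38.8 to 84.9 CPM in WT NKT2 and 149 to 191 CPM in SKG NKT2. Tnfsf11, or RANKL, fell 6.07-fold in NKT2, from 93.0, 99.8 and 96.7 CPM to 19.2, 14.9 and 13.6 CPM, and was at 1.21 to 2.92 CPM in SKG NKT1 (difference -2.78, SE 0.51, edgeR adjusted p 0.00218). Cd86 was detected mainly in SKG NKT2, at 3.52, 5.09 and 8.67 CPM, and its call was lost without WT NKT1 replicate 2, the single NKT1 library with reads of it (edgeR adjusted p 1), and by DESeq2 (adjusted p 0.168). With 3 of its groups at the floor no bound can be given for Cd86, which counts among the 5. The lower calls of the list rose from 1 to 3 without SKG NKT2 replicate 1.

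The TCR complex with its proximal kinases and adaptors held 2 lower and 0 higher calls among 26 tested genes (median difference 0.32), beside 1.78% and 2.09% of all tested genes. Themis, a regulator of TCR signalling needed in thymic selection (chromosome 10, 28388166 to 28603624), had at most 2 counts in each WT NKT1 library and 17.6, 23.3 and 16.8 CPM in SKG NKT1. In NKT2 it was at 40.3, 37.0 and 58.7 CPM in WT and 135, 159.9 and 129 CPM in SKG. It rose in both, at least 39.4-fold in NKT1 and 3.12-fold in NKT2, so the difference was at most -3.66 (edgeR adjusted p 2.39e-04). Cd247, the CD3ζ chain to which ZAP70 binds, fell in NKT2 from 1403, 1997 and 1556 CPM to 1039.5, 1032 and 844 CPM, and its NKT1 libraries, at 276 to 326 CPM, overlapped (difference -0.70, SE 0.17, edgeR adjusted p 0.0288). This call was lost without WT NKT2 replicate 2, when the fold fell under 1.5.

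Genes that restrain TCR signalling were called higher in 4 and lower in 1 of 23 cases (median difference 0.21). Dgka, a kinase that removes diacylglycerol, was at 229.9, 199 and 241 CPM in WT and 451, 421 and 504.7 CPM in SKG NKT2, and NKT1 overlapped at 323 to 389 CPM (difference 0.95, SE 0.17, edgeR adjusted p 0.00149). Ptpn22, a phosphatase of Lck and ZAP70, and Ubash3a, a suppressor of TCR signalling, also rose in NKT2, with differences of 1.04 (SE 0.20) and 1.29 (SE 0.29). The ubiquitin ligase Cblb passed in the difference (0.87, SE 0.23, edgeR adjusted p 0.0418) but in neither subset, and was lost without SKG NKT1 replicate 1, SKG NKT2 replicate 1, SKG NKT2 replicate 3 or WT NKT2 replicate 3. Sla2, an adaptor that damps receptor signals (-0.68, SE 0.21), was lost under 11 of 22 alternatives. Of 10 inhibitory receptors, 3 were called higher, Cd96 among them. Tigit fell in NKT1 from 42.3, 32.8 and 48.0 CPM to 12.1, 4.37 and 9.18 CPM and reached 1.98 CPM at most in NKT2, a difference of at least 3.21 (edgeR adjusted p 0.0456). Lag3 fell in both subsets to 0 counts in SKG NKT1, and from 56.6, 41.4 and 32.7 CPM to 7.27, 9.01 and 4.98 CPM in NKT2, a difference of at least 0.55 (edgeR adjusted p 0.0636). That bound is under the 1.5-fold minimum, so the call of Lag3 rests on the fitted value with 0 counts in SKG NKT1. The calls of Tigit and Lag3 rest on few counts, that of Tigit was lost without WT NKT2 replicate 1, and that of Lag3 under 8 of 22 alternatives, among them the removal of any SKG NKT1 library or of WT NKT1 replicate 1. Without SKG NKT2 replicate 1, SKG NKT2 replicate 2 or WT NKT2 replicate 3 the list kept 1 call.

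Of 25 genes that TCR signals induce, 3 were called higher and 3 lower (median difference 0.63). Nfkbia, the NF-κB inhibitor IκBα, rose in NKT2 from 173, 171 and 202 CPM to 322, 276 and 322 CPM (difference 0.96, SE 0.22, edgeR adjusted p 0.0141). Bhlhe40, a transcription factor, rose in NKT2, with 2.45 to 3.72 CPM in WT and 6.39 to 10.9 CPM in SKG, against 70.8 CPM or more in NKT1 (difference 2.09, SE 0.51), and was lost without SKG NKT2 replicate 3 (edgeR adjusted p 0.121). Nfatc1, a calcium-dependent factor, fell in NKT2 from 465, 381 and 406 CPM to 251, 180.3 and 236 CPM (difference -0.75, SE 0.20, edgeR adjusted p 0.0444), a call also lost without WT NKT2 replicate 1. Spry2, the growth regulator Myc and the EGR corepressor Nab1 had edgeR adjusted p of 0.0807, 0.0964 and 0.0516 and were lost under 12, 10 and 9 of 22 alternatives. All 3 lower calls were lost without SKG NKT1 replicate 1 and without SKG NKT2 replicate 2. Spry2, a feedback inhibitor of receptor tyrosine kinases, fell in both subsets, 6.04-fold in NKT1 and 22.1-fold in NKT2. Of 15 immediate-early and stress genes the single call was Ier3 (-3.36, SE 0.81, edgeR adjusted p 0.0239), which was lost without WT NKT2 replicate 3. Of 30 lineage and stage transcription factors it was Lef1, a partner of β-catenin (-0.90, SE 0.27, edgeR adjusted p 0.087), lost under 9 of 22 alternatives, and 3 members were called higher without WT NKT2 replicate 1. Single calls in lists of 15 and 30 genes lie near the share of 3.87% over all tested genes.

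Over 3 lists of natural killer cell receptors 1 gene was called, beside 3.87% of all tested genes. By edgeR, 0 of 7 tested Ly49 receptors passed in the difference (0 at an unadjusted p under 0.05 and 0 by DESeq2), with a median of -0.43, or 0.05 with floor levels at their bound. Of 10 genes of CD94, NKG2 and related receptors 0 passed (1 at an unadjusted p under 0.05 and 1 by DESeq2, median -0.68). All 7 Ly49 genes fell in NKT1 and 5 fell in NKT2, with median SKG effects of -1.78 and -1.64. Of all tested genes, 3.27% were called in NKT1 and 7.95% in NKT2, both directions together. A p that misses the threshold does not show that the effects were equal. Klrb1f, an NKR-P1 receptor with close paralogs, was the single call of 6 and fell in NKT1 from 83.3, 69.5 and 74.9 CPM to 18.0, 21.7 and 29.5 CPM, while its NKT2 levels of 2.45, 5.59 and 4.20 CPM in WT and 3.74, 11.2 and 8.51 CPM in SKG overlapped but passed as a rise (difference 2.65, SE 0.41, edgeR adjusted p 4.73e-04). Among 10 genes of the SLAM family, CD2 and SAP adaptors, Cd2, a receptor of CD48, was called. It rose in NKT2 from 36.6, 42.1 and 76.1 CPM to 251, 267 and 294 CPM and was at 706 to 747 CPM in SKG NKT1, overlapping WT (difference 2.40, SE 0.44, edgeR adjusted p 0.00771).

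Receptors of migration and adhesion were called in both directions. Of 17 chemokine and lipid migration receptors 4 were higher and 2 lower (median difference 0.33), and of 14 integrin chains 2 were higher and 1 lower (median -0.19). Ccr8, the CCL1 receptor, rose in NKT2 from 56.8, 41.6 and 37.2 CPM to 217, 198 and 159 CPM with overlapping NKT1 libraries (difference 2.11, SE 0.36, edgeR adjusted p 0.00184). Cxcr6, the CXCL16 receptor, rose in NKT2 from 518, 681 and 631 CPM to 1272, 1442 and 1507 CPM, and in NKT1 SKG lay above WT by less than 1.5-fold (difference 0.73, SE 0.17, edgeR adjusted p 0.0169). Gpr183, which guides cells along oxysterols, rose as well (difference 1.55, SE 0.33), and its difference was lost with a block of genotype and replicate number in the 12 libraries (edgeR adjusted p 0.114). Ccr10, a receptor of skin-homing T cells, fell in NKT2 from 98.3, 77.8 and 34.9 CPM to 8.15, 11.4 and 8.99 CPM (difference -3.08, SE 0.50, edgeR adjusted p 0.00107). Its annotated span overlaps that of Cntnap1, which was called lower as well, so the counts of both are uncertain where they overlap. Ccr2, the CCL2 receptor, rose in NKT1 from 169.7, 101 and 123 CPM to 383, 454 and 318 CPM, with a difference (-1.10, SE 0.30) that was lost under 9 of 22 alternatives. Itga4, the α4 integrin chain, fell in NKT1, where 1 WT library was far above the rest, and rose in NKT2 (3.11, SE 0.61). Itgb7, the β7 chain that pairs with it, rose in both and more so in NKT2 (0.60, SE 0.16), a call lost under 13 of 22 alternatives.

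Interferon-stimulated and antigen-processing genes fell mostly in NKT1. Of 30 tested members, 15 fell and 0 rose in SKG NKT1, 3 fell and 0 rose in SKG NKT2, and in the difference 8 were called higher and 1 lower, with a median of 0.60 over the list. Of all 11118 tested genes, 202 fell and 162 rose in NKT1, and 450 fell and 434 rose in NKT2. Irf7, the master factor of the interferon-α response (chromosome 7, 148448605 to 148452380), was at 329.9, 314 and 369 CPM in WT and 165, 209 and 173 CPM in SKG NKT1. It was at 138, 194 and 162 CPM in WT and 153, 176 and 168 CPM in SKG NKT2. It fell 1.85-fold in NKT1 and overlapped in NKT2 (difference 0.89, SE 0.20, edgeR adjusted p 0.0119). Isg20, an interferon-induced exonuclease (chromosome 7, 86058310 to 86065248), went from 184, 177 and 202 CPM to 88.4, 79.4 and 106 CPM in NKT1 and overlapped in NKT2 at 63.6 to 90.5 CPM (difference 0.86, SE 0.20, edgeR adjusted p 0.0146). Ifit1 differed by 1.02 (SE 0.26) and was lost without WT NKT2 replicate 3.

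Irf9, Ifi35, Rtp4 and Gbp6 had differences of 0.69, 0.59, 0.80 and 1.11 and were lost under 14, 16, 10 and 7 of 22 alternatives. The exception in direction was Oas3, which fell in NKT2 from 89.7, 90.2 and 92.1 CPM to 32.4, 53.6 and 39.3 CPM (difference -1.44, SE 0.30, edgeR adjusted p 0.00591). The count of 8 fell to 2 without WT NKT2 replicate 3 and to 4 at an adjusted p under 0.05, whereas Irf7 and Isg20 were called under each of the 22 alternatives. Gbp6 belongs to a family of near-identical genes, and reads split among them are uncertain.

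**Figure D4:**
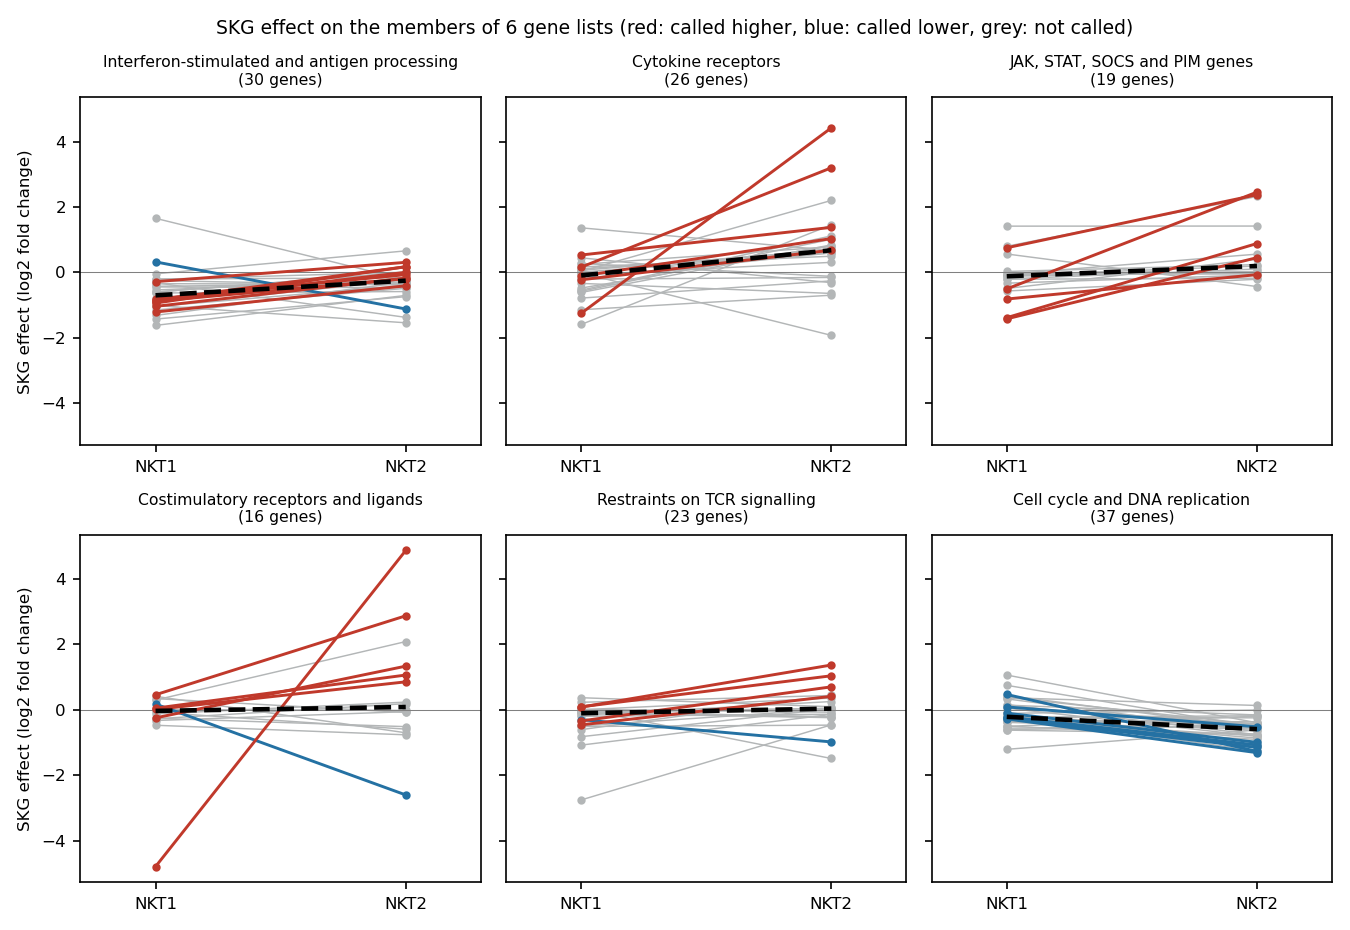
SKG effect (log2 fold change, vertical axis) in NKT1 and in NKT2 for each tested member of 6 gene lists, joined by a line per gene; red and blue mark genes called higher and lower in the difference, and the dashed line joins the medians. Interferon-stimulated genes start below 0 in NKT1 (median -0.70), cytokine receptors end above 0 in NKT2 (median 0.68), and cell cycle genes end below 0 in NKT2 (median -0.59); the steepest red line among costimulatory genes is Cd86, at floor levels in 3 groups.

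Genes of cell division were called in the lower direction. Of 37 tested, 6 were lower and 0 higher, beside 1.78% and 2.09% of all tested genes. The median difference was -0.61, and 11 of the 37 fell in SKG NKT2 and 2 in SKG NKT1. Both directions together, 7.95% of all tested genes were called in NKT2 and 3.27% in NKT1. Mcm6, a subunit of the replicative helicase, went from 337, 303 and 308 CPM in WT to 124, 166 and 159 CPM in SKG NKT2 and overlapped in NKT1 at 127 to 202 CPM in WT and 137 to 166 CPM in SKG (difference -0.86, SE 0.21, edgeR adjusted p 0.0253). Mcm7 and Mcm5 of the same complex differed by -0.89 (SE 0.20) and -0.89 (SE 0.26). Uhrf1, which maintains DNA methylation at replication forks, differed by -1.74 (SE 0.40), and Stmn1 and Tubb5, of the microtubule cytoskeleton, by -1.03 (SE 0.30) and -0.61 (SE 0.15). The call of Uhrf1 was lost with a block of genotype and replicate number in the 12 libraries (edgeR adjusted p 0.14). The calls of Mcm5 and Stmn1 were lost under 9 and 8 of 22 alternatives, and that of Tubb5 without WT NKT2 replicate 1, SKG NKT1 replicate 1 or SKG NKT2 replicate 2. The count of 6 fell to 3 without WT NKT2 replicate 1, SKG NKT1 replicate 1 or SKG NKT2 replicate 2, and rose to 9 without SKG NKT1 replicate 3.

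Of the metabolic genes, Tpi1 and Pfkfb3 were lower among 23 genes of glycolysis (-0.61 and -0.90), beside 1.78% of all tested genes. The call of Tpi1 was lost without WT NKT1 replicate 1, WT NKT2 replicate 1 or SKG NKT1 replicate 1, that of Pfkfb3 under 12 of 22 alternatives. Among 24 genes of sterol and fatty acid synthesis, Acly, which makes cytosolic acetyl-CoA, fell in NKT2 from 623, 710.4 and 549 CPM to 284, 326 and 334 CPM (difference -0.90, SE 0.17, edgeR adjusted p 0.00282). Scd2, a fatty acid desaturase, fell as well (-1.10, SE 0.19), while Sc5d of sterol synthesis was higher (0.78, SE 0.20), a call lost without WT NKT2 replicate 1, SKG NKT1 replicate 2 or SKG NKT2 replicate 3. By edgeR, 0 of 13 genes of amino acid and iron uptake (median -0.34), 0 of 83 ribosomal protein genes (median -0.18) and 0 of 84 subunits of oxidative phosphorylation (median -0.06) were called. At an unadjusted p under 0.05 there were 4, 2 and 1 of them, and DESeq2 called 0 of each list. A single subunit of oxidative phosphorylation was called higher without SKG NKT2 replicate 2 and without SKG NKT1 replicate 3. Of 14 BCL-2 family members, Bik, a pro-apoptotic BH3-only gene, rose in NKT2 from 2.04, 2.45 and 2.91 CPM to 14.3, 13.9 and 18.6 CPM (difference 2.49, SE 0.37, edgeR adjusted p 2.60e-04), and Bcl2a1d, whose count is uncertain because of near-identical copies, differed by 1.30 (SE 0.29). Of 15 annexin and S100 genes and relatives, Lgals3, galectin-3, rose in NKT2 from 103, 57.5 and 47.4 CPM to 219, 409 and 269.6 CPM (difference 2.80, SE 0.48, edgeR adjusted p 0.00591). It was the single call of that list, beside 3.87% of all tested genes.

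Whether the genes that differed also responded in NKT17 cells was asked in the 6 NKT17 libraries, which did not enter the contrast but shared the filter and the estimate of the spread with it. Of the 232 genes with a higher effect in NKT2, 77 (33.2%) rose and 8 (3.45%) fell in SKG NKT17, beside 3.83% and 4.54% of all tested genes. Their median SKG effect in NKT17 was 0.40, and 179 (77.2%) were above 0, against 50.5% of all genes. Of the 198 genes with a lower effect in NKT2, 54 (27.3%) fell and 6 (3.03%) rose in SKG NKT17, with a median of -0.36. Qpct, for example, was at 91.8, 115 and 104 CPM in WT and 287, 344 and 290.0 CPM in SKG NKT17, and Fut7 at 139, 123 and 112 CPM in WT and 28.6, 27.2 and 39.0 CPM in SKG NKT17. SKG lay above WT for the first and below it for the second, with SKG effects of 1.56 (SE 0.13, edgeR adjusted p 4.30e-08) and -1.98 (SE 0.25, edgeR adjusted p 9.83e-06). With the genes chosen in a fit of the 12 NKT1 and NKT2 libraries alone and the NKT17 effect fitted in its 6 libraries alone, an alternative chosen after seeing the data, 74 of 200 higher genes (37.0%) rose and 48 of 171 lower genes (28.1%) fell, beside 4.47% and 4.85% of all 10369 genes tested there. In both fits the NKT17 libraries carried the same replicate numbers as the NKT1 and NKT2 libraries and were alike with them in sex-linked genes. The 6 genes that rose in NKT17 despite a lower effect in NKT2 were Ccr10, Hpse, Ly6g5b, Sept8, Themis and Ttc39c. Among the 8 that fell despite a higher effect were Arhgef3, Atp1b1, Gbp6, Gbp9, Lag3, Rtp4 and Slc16a6, of which Gbp6, Lag3 and Rtp4 fell in NKT1 too.

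**Figure D5:**
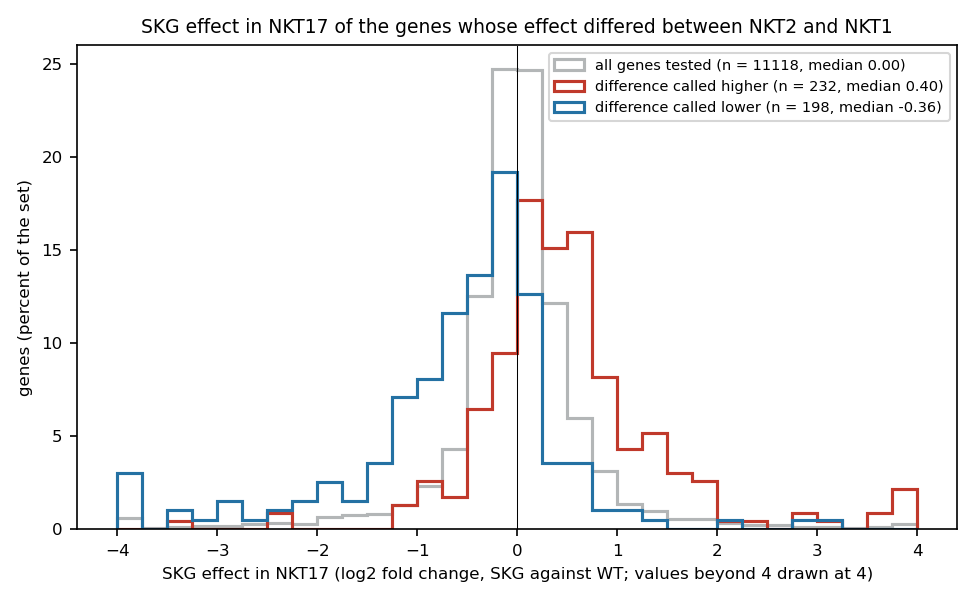
SKG effect in NKT17 (log2 fold change of SKG against WT, horizontal axis) as the percent of genes per bin, with values beyond 4 drawn at 4, for all 11118 genes and for the 232 and 198 genes with a higher or lower SKG effect in NKT2 than in NKT1. The higher set is shifted to the right (median 0.40) and the lower set to the left (median -0.36).

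Some called genes were neighbours on the chromosome. Of 422 called genes with a unique position, 61 (14.5%) had a called gene as the next tested gene on either side, in 33 pairs, 29 of them with the same direction and 2 with overlapping spans. Of all 10846 tested genes with a unique position, 7.57% lay next to a called gene. Ltb, Tnf and Lta lie in 1 row within 35331384 to 35342296 of chromosome 17, with 3060 and 1157 bases between them, and were all higher. Il4 and Il13 lie 12654 bases apart on chromosome 11 and were both lower. Il4ra and Il21r lie 23956 bases apart on chromosome 7 and were both higher. Coordinates of genes are on NCBIM37 (mm9) and span exons and introns. Whether reads of 1 gene were counted for its neighbour was not tested.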

How the data were processed

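Poly-A RNA of sorted iNKT thymocytes was amplified, tagmented with Tn5 and sequenced as short single-end reads in 18 libraries, 3 for each of 6 groups. The deposited values are raw counts per gene, which the authors made by alignment with TopHat 1.4.1 (the methods name mm9, while the submitters' notes list builds mm10 and hg19, Bowtie 1.0.0 and HTSeq 0.7.1), a filter on low-complexity reads and counting in union mode. The annotation and the use of strand are not given in the sources used here. A further 2 columns match no listed sample and were not used.

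Counts were scaled by TMM (factors 0.928 to 1.07), filtered by group from 15582 genes with a read to 11118, and fitted with edgeR 4.0.16 (robust quasi-likelihood, 12 residual degrees of freedom) under R 4.3.3 on all 18 libraries. The contrast was the SKG effect in NKT2 minus that in NKT1. A call needed a Benjamini-Hochberg adjusted p under 0.1 and a 1.5-fold change. SE was derived from the log2 value and the F statistic (log2 value over root F). A group with at most 3 counts in every library was set to a floor of 3 counts per library, and its differences are bounds. Counting intervals and floors cover counting error only.

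Named genes were, among calls whose highest group averaged 50 counts or more, the 10 with the smallest adjusted p in each direction, the 8 with the smallest adjusted p among opposite effects, Zap70, and each called member of the gene lists. Results on some genes that this rule chose are not reported here. The members and lists were chosen with earlier results of these data known. The study's text speaks of independent experiments, but no source used here ties a library to animals, so p-values measure the spread between these libraries, which may be technical in part. Replicates differed by more than sampling noise (chi-square per degree of freedom 5.54 to 25.05). On simulated counts of 10994 genes for this contrast, edgeR called 44 of 100 genes changed 2-fold, 82 of 100 changed 4-fold and 22 unchanged genes, and DESeq2 1.42.0 called 51, 87 and 51. The 22 alternatives covered DESeq2, scaling, filters, thresholds, samples in the fit, replicate blocks and leaving out each of the 12 libraries.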

Additional observations from a re-analysis of the deposited data

Results flagged for a closer look

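The SKG effect differed between NKT2 and NKT1 by a test of the difference itself at 430 genes, and those named by rank are repeated here with the log2 difference. For higher effects in NKT2 these were Qpct (3.78), Fasl (3.10), Cd96 (1.88), Ms4a4b (2.54), Ltb (1.66), Pim2 (1.87), Dap (1.51), Il4ra (3.04), Il2ra (5.67) and Dtx1 (at least 4.36). For lower effects they were Slc29a1 (-1.93), Fam129a (-1.77), Fut7 (-4.20), Cmtm7 (-1.95), Atp8b4 (-2.21), Matk (-3.07), Ttc39c (-2.11), Trf (-4.54), Itgb3 (-4.09) and Amph (-3.79). Further genes with opposite effects in the subsets were Btg1 (1.70), Relb (1.49) and Trib2 (1.68).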

How the results depend on the processing

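The 23 genes named by rank or for opposite effects were called under each of the 22 alternatives, as were 43 of 72 named list members, and 0 named genes changed sign. The count of 430 genes ranged from 300 at an adjusted p under 0.05 to 579 by DESeq2, which shared 425 of them. Leaving out 1 library gave 326 (without SKG NKT1 replicate 1) to 572 (without WT NKT1 replicate 3), with 167 to 293 higher and 138 to 279 lower. The genes with opposite effects numbered 28 by DESeq2, 11 at an adjusted p under 0.05 and 31 with no minimum fold. At an adjusted p under 0.05 there were 51 genes called in NKT1 alone, 11 in both in the same direction and 45 in neither, and with no minimum fold 38 in neither. Without 1 library these classes ranged from 53 (without SKG NKT1 replicate 2 or SKG NKT2 replicate 3) to 95 for NKT1 alone, from 188 to 303 for NKT2 alone, from 12 to 25 for opposite effects, from 8 (without SKG NKT1 replicate 1) to 18 for the same direction and from 44 (without SKG NKT2 replicate 1) to 131 (without WT NKT1 replicate 3) for neither. The cause of these shifts was not tested, beyond the thresholds and samples that define each alternative. Same-numbered NKT1 and NKT2 libraries of a genotype had correlations of -0.061 to 0.262 in their deviations from group means, 4 of 6 over 0.1. Of the 6, 5 correlated best with their own number, and same-numbered libraries were alike in sex-linked genes. The main fit did not use a pairing, and these values do not show that same-numbered libraries were independent. Whether a number marks the same mice was not tested. A block on the token in the sample titles gave 513 calls (415 shared) over 18 libraries. That token is not the replicate number: WT replicate 2 shares it with SKG replicate 1, and WT replicate 3 with SKG replicate 2. The tokens of WT replicate 1 and SKG replicate 3 occur in a single genotype. A block of genotype and number together gave 430 calls (344 shared) over 12 libraries, where 4 residual degrees of freedom remain. The block of genotype and number ended the calls of Gbp6, Gpr183, Ifi35, Irf9, Itgb7, Tnf and Uhrf1 among the named genes. The block on the token ended that of Spry2. Counts of called list members moved by over 1.5 times in 126 cases and stayed within that in 1018. Depth limits genes with a group at the floor, 43 of the 430, to bounds.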
